A study of Mus musculus with 12 samples.

Results

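Cytosines of mitochondrially encoded mRNAs and tRNAs were followed across mouse tissues in bisulfite-treated polyadenylated RNA. They are all cytosines of the deposited mouse tissue table that lie on the mitochondrial chromosome outside mt-Rnr1, the gene of the 12S ribosomal RNA. There were 14 such sites in 8 genes, of 2498 sites in 1964 genes in all. The rule uses position and gene name and no measured value, though it was written with earlier results of these data known. Of the 14 sites, 12 lay in 6 mRNAs (mt-Co2, mt-Atp6, mt-Nd4l, mt-Nd4, mt-Nd5 and mt-Cytb) and 2 in tRNAs (mt-Tl1 and mt-Tm). RefSeq lists 13 mRNA and 22 tRNA genes on this chromosome.

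Bisulfite turns unmodified cytosine into a base read as T, while 5-methylcytosine (m5C) stays C. The m5C level of a site is therefore the share of its reads that remained unconverted, and its coverage is the number of those reads. All mice were C57BL/6, wild type and 8 to 10 weeks old. Heart and liver had 1 female library each, muscle had 4 female libraries, and small intestine, lung and spleen had 1 female and 1 male library each. The table holds 1 set of columns per tissue, so no value carries an error between animals, and tissue and sex cannot be told apart in comparisons with small intestine. All tests below compare deposited columns and cover counting error only, as do the 95% Wilson intervals.

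Mitochondrial DNA is transcribed into long RNAs from which tRNAs are cut, releasing rRNAs and mRNAs between them, and the mRNAs receive short poly(A) tails. The mRNAs encode membrane subunits of the respiratory chain and of ATP synthase. In mammals, methyltransferases of the NSUN family place m5C on mitochondrial RNA: NSUN2 on several tRNAs, NSUN3 on the anticodon of tRNA-Met, where ALKBH1 oxidises the mark further, and NSUN4 on the small ribosomal RNA. Cytosines in stable RNA structure can also resist conversion by bisulfite.

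Over the whole table, coverage summed over listed sites was 2117347 to 4683960 reads in heart, liver, muscle and small intestine, and 261562 in lung and 304426 in spleen. Tissue labels could be checked through few markers. Sites in the fast myosin genes Myh1 and Myh4 had 1372977 reads in muscle and at most 443 elsewhere, those in the hepatocyte genes Alb and Ass1 had 1185207 in liver and at most 66 elsewhere, and those in the Paneth cell genes Lyz1 and Defa24 had 13791 in small intestine and at most 664 elsewhere. The 664 reads of the Paneth cell genes were in lung, where coverage over all listed sites was 261562, against 2117347 in small intestine. The gap between these tissues is thus smaller relative to coverage than in reads. Abca3, the one lung marker with a site, had 981 reads in lung and 1001 in liver. Coverage over all listed sites was 261562 in lung and 2869803 in liver. Relative to that coverage, Abca3 had most reads in lung. None of 8 heart markers and none of 5 spleen markers had a listed site.

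All 14 sites were on the plus strand, and each lay inside 1 RefSeq gene (positions are those of mm10; gene spans are from GRCm38.p6, the same assembly). Of the 12 mRNA sites, 3 fell on a first, 6 on a second and 3 on the third codon position. In mt-Cytb, the gene of cytochrome b of complex III (MT:14145-15288), there were 6 sites in 2 places. The first 4 were positions 14166, 14168, 14169 and 14170, which are bases 22 to 26 of the gene in codons 8 and 9. The other pair, 14917 and 14920, fell on the second bases of the adjoining codons 258 and 259. Both mt-Nd4l sites, 9880 and 9884, were bases 4 and 8 of that complex I gene (MT:9877-10173). With these 3 groups, 8 of 14 sites had another listed site within 10 nt.

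The other 6 sites stood alone, with no listed site closer than 772 nt. The mt-Co2 site at 7285 was base 273 of the gene (MT:7013-7696), in codon 91. The mt-Atp6 site at 8057 was base 131 (MT:7927-8607), in codon 44. The mt-Nd4 site at 11069 was base 903 (MT:10167-11544), in codon 301, and the mt-Nd5 site at 12352 was base 611 (MT:11742-13565), in codon 204. In the tRNAs, the mt-Tl1 site at 2725 was base 50 of 75 (MT:2676-2750) and the mt-Tm site at 3875 was base 31 of 69 (MT:3845-3913), counted from the first base of the gene.

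**Figure D1:**
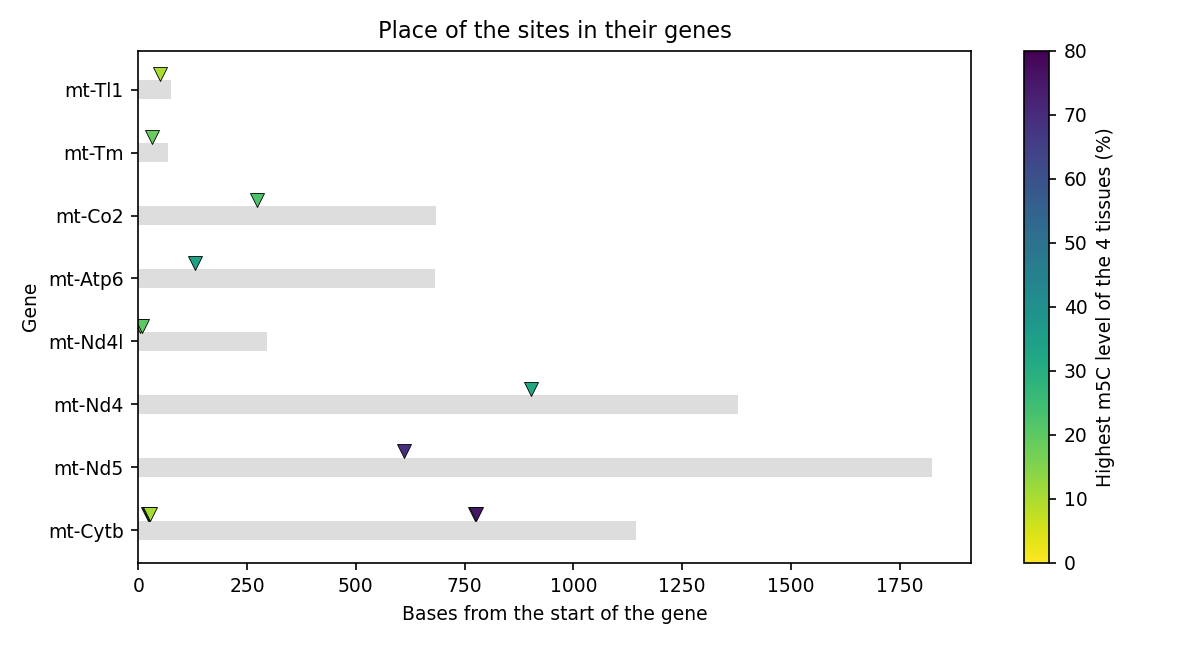
Place of the 14 sites in their 8 genes. Grey bars show the length of each gene in bases, triangles the sites, and colour the highest m5C level among heart, liver, muscle and small intestine; sites a few bases apart overlap, as the 4 at the start of mt-Cytb and the pair at bases 773 and 776 do.

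The m5C level was highest in small intestine at 11 of 11 sites that had at least 20 reads in heart, liver, muscle and small intestine. Among 1214 nuclear sites with the same coverage, small intestine was highest at 95 (7.83%) and lowest at 733 (60.4%), ties not counted. The mitochondrial sites ranged widely within a tissue, in small intestine from 10.0% at mt-Tl1 to 75.1% at mt-Cytb 14920. Liver was the lowest tissue at 8 of 11 sites and heart at 2, and at mt-Cytb 14166 both had 0 unconverted reads. A site may be listed because it was high in small intestine, and the order then depends in part on the listing: of the 14 sites, the authors called 6 as m5C sites in small intestine alone. At the 5 mitochondrial sites the authors also called in heart, liver or muscle, small intestine was highest at all 5. Among 974 nuclear sites called in those tissues it was highest at 29 (2.98%). These sets are not alike: all 5 were called in small intestine too, which was not required of the nuclear sites. Both mt-Rnr1 sites, 909 with 19.8% and 911 with 79.0%, were likewise highest in small intestine among these 4 tissues. Lung, with 30.9% and 93.0%, and spleen, with 30.5% and 88.7%, had higher levels at both.

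**Figure D2:**
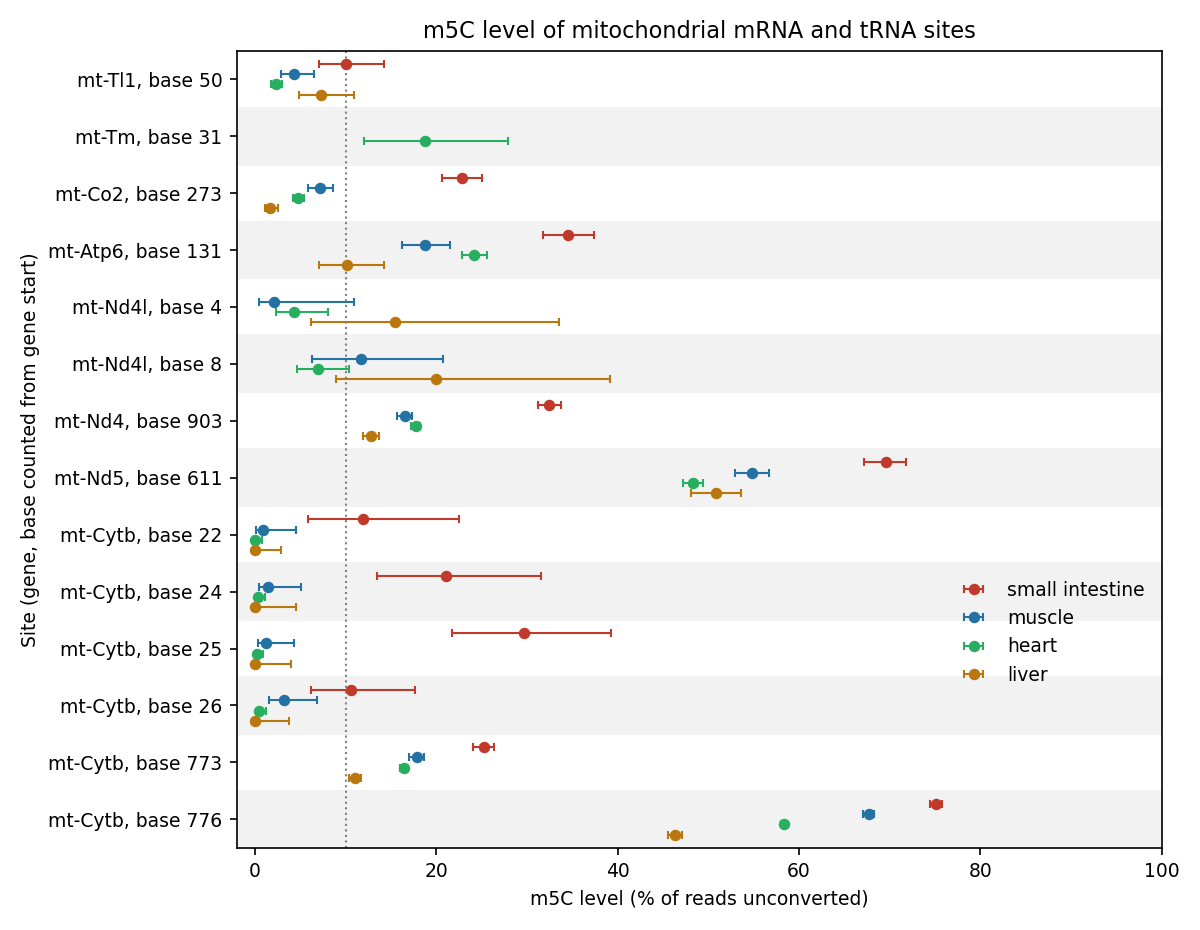
m5C level of each site in 4 tissues. Points are the deposited levels in percent, bars 95% Wilson intervals of counting error, and the dotted line marks 10%; the small intestine points lie to the right of the others at every site where small intestine has a value.

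Each pair of the 4 tissues was compared at every site of the table by Fisher's exact test, with Benjamini-Hochberg adjustment over all sites covered by at least 20 reads in both. Calls needed both an adjusted p under 0.05 and levels at least 10 percentage points apart. Small intestine was called higher than heart at 9 of 11 mitochondrial sites, against 2.18% of all 1465 sites. It was called higher than muscle at 7 of 11, against 2.79% of 1397, and higher than liver at 10 of 11, against 3.12% of 1347. These 11 sites lay in 6 genes, and 6 of them may be listed through small intestine, where alone the authors called them. On sites called by the authors in a tissue outside the pair, a choice made after the data were seen, small intestine was higher than heart at 4 of 5 mitochondrial sites, against 1.60% of all such sites. It was higher than muscle at 3 of 5, against 2.31%, and higher than liver at 5 of 5, against 2.174%. All 5 were called in small intestine too, which was not required of the other sites, so these shares do not compare like sets. None of the mitochondrial sites was called lower in small intestine, and none had an unadjusted p under 0.05 in that direction in Fisher's exact test, whereas 27.5%, 37.4% and 8.09% of all sites were lower there than in heart, muscle and liver. The median difference of the 11 sites was 14.7 points from heart, 14.8 from muscle and 19.7 from liver. The median over all sites was -5.86, -7.49 and -1.77 points.

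**Figure D3:**
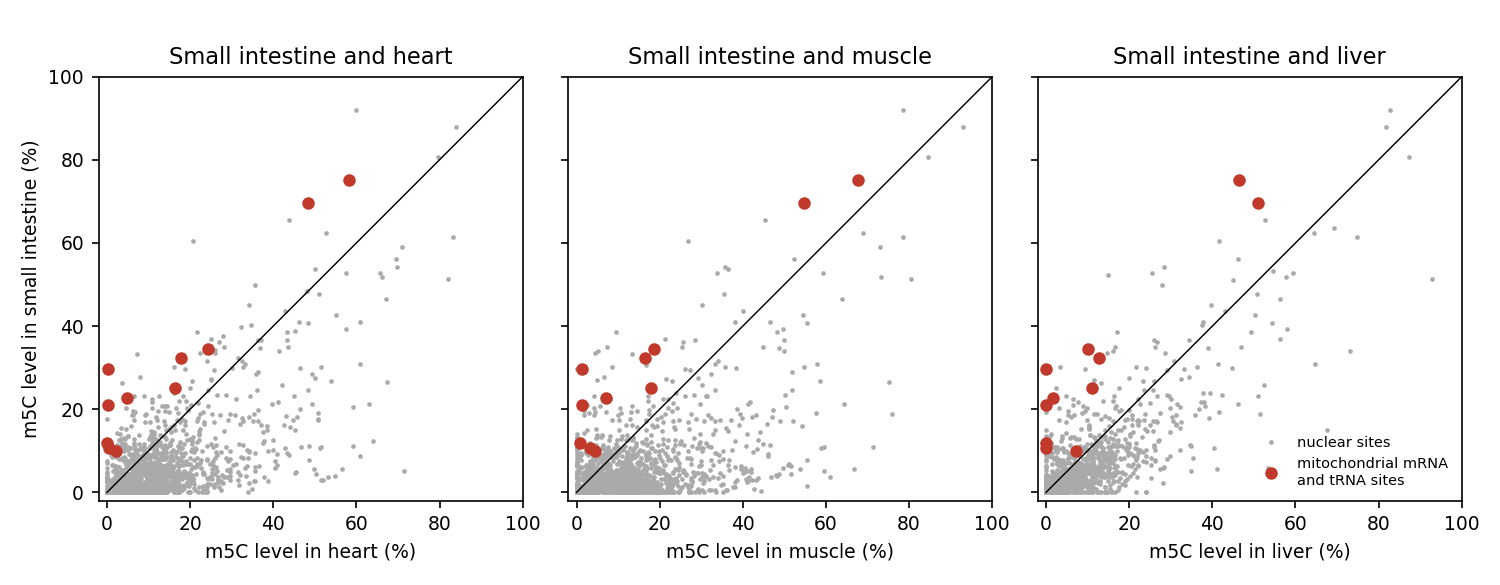
m5C level in small intestine against that in heart, muscle and liver, in percent. Grey points are nuclear sites with at least 20 reads in both tissues, red points the 11 mitochondrial mRNA and tRNA sites, and the line marks equal levels; all 11 red points lie above the line in each panel.

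Differences among heart, muscle and liver were fewer. Muscle and heart differed by 10 points or more at none of 13 mitochondrial sites, while 10.0% of all 1645 sites were called higher in muscle and 5.35% higher in heart. At an unadjusted p under 0.05, without the minimum difference, 8 of the 13 differed, of which 6 were higher in muscle. At an adjusted p under 0.05, also without the minimum, 6 were higher in muscle and 2 in heart. Of all 1645 sites, 370 (22.5%) were higher in muscle and 258 in heart at that limit. Muscle was called higher than liver at 1 of 13 sites, mt-Cytb 14920, against 27.1% of all 1372 sites, and lower at none, against 3.28%; 1 mt-Nd4l site had an unadjusted p under 0.05 in that direction. Heart was called higher than liver at 2 of 13, mt-Atp6 and mt-Cytb 14920, against 19.6% of all 1433 sites, and lower at none, against 2.65%; 3 sites had an unadjusted p under 0.05 in that direction.

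The complex I subunits, which pump protons in the inner membrane, held the mt-Nd5, mt-Nd4 and mt-Nd4l sites. At mt-Nd5 the level was 69.6% of 1515 reads in small intestine, 54.8% of 2761 in muscle, 50.9% of 1264 in liver and 48.3% of 7688 in heart. Small intestine stood apart from the other 3, whose intervals ran from 47.2% to 56.6%. It exceeded heart by 21.3 points (18.6 to 23.8; Fisher's exact adjusted p = 7.4e-52), liver by 18.7 (15.1 to 22.3) and muscle by 14.8 (11.8 to 17.7). Heart minus liver, neighbours in this order, was -2.56 points (-5.53 to 0.411; Fisher's exact adjusted p = 0.17), so their order was not resolved.

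The mt-Nd4 site had lower levels, again highest in small intestine but with liver rather than heart lowest. It had 32.4% of 5361 reads in small intestine, 17.7% of 22889 in heart, 16.5% of 7979 in muscle and, lowest, 12.7% of 5572 in liver. The small intestine level exceeded that of heart by 14.7 points (13.4 to 16.1; Fisher's exact adjusted p = 7.9e-116). Heart and muscle lay 1.23 points apart, and heart and liver 4.98, both under the minimum difference.

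The mt-Nd4l sites, next to the start codon, had few reads outside heart and none listed in small intestine. Position 9884 had 20% of 25 reads in liver, 11.7% of 77 in muscle and 6.96% of 316 in heart. Position 9880 had 15.4% of 26 reads in liver, 4.31% of 209 in heart and 2.08% of 48 in muscle. Liver was nominally highest at both, with intervals of 8.86% to 39.1% and 6.15% to 33.5%, and no pair was called. Without adjustment, heart minus liver was -11.1 points at 9880 (-29.3 to -1.14; Fisher's exact p = 0.042) and -13.04 at 9884 (-32.3 to -1.40; Fisher's exact p = 0.037), and neither passed after adjustment (Fisher's exact adjusted p = 0.088 and 0.078). Muscle minus liver at 9880 was -13.3 points (-31.5 to -0.534; Fisher's exact adjusted p = 0.089). The intervals of these 3 differences excluded 0, but with 25 to 26 reads in liver they were wide and no adjusted p passed.

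Cytochrome b, the electron-carrying core subunit of complex III, held the site with the highest mean level, mt-Cytb 14920. It had 75.1% of 17199 reads in small intestine, 67.7% of 22402 in muscle, 58.3% of 88099 in heart and 46.3% of 14665 in liver. These 4 levels were fully ordered, with no overlap between the intervals. The difference was 28.8 points between small intestine and liver (27.8 to 29.8), 21.4 between muscle and liver and 12.02 between heart and liver (Fisher's exact adjusted p = 1.8e-159). With coverages scaled down to 200 reads, the call between heart and liver was lost (Fisher's exact adjusted p = 0.061; 1.1e-159 to 0.061 over the alternatives run). Small intestine exceeded muscle by 7.42 points and muscle exceeded heart by 9.35, both under the minimum difference.

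At 14917, 3 nt upstream, the level was 25.2% of 5393 reads in small intestine, 17.8% of 8242 in muscle, 16.4% of 41003 in heart and 10.97% of 8188 in liver. The tissues followed the same order as at 14920, at levels lower by a ratio of 2.98 in small intestine to 4.22 in liver. Of the pairs at 14917, small intestine against liver alone was called, with 14.3 points (12.9 to 15.6; Fisher's exact adjusted p = 3.8e-101). This was the one site of the 14 that the authors called in all 4 tissues.

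The 4 sites at the start of mt-Cytb behaved differently from that pair: unconverted reads were seen mainly in small intestine. The authors called all 4 there and in no other tissue, so the differences below concern sites that may be listed because they were high in small intestine. Position 14169 had 30 unconverted of 101 reads (29.7%) in small intestine, 2 of 166 in muscle, 2 of 799 in heart and 0 of 93 in liver. Position 14168 had 16 of 76 (21.1%) in small intestine, 2 of 140 in muscle, 2 of 669 in heart and 0 of 82 in liver. In liver a count of 0 allows up to 3.23% at 14169 and 3.66% at 14168. Both were called higher in small intestine than in each of the other 3 tissues, by 28.5 to 29.7 points at 14169 (largest Fisher's exact adjusted p = 3.4e-09, against liver).

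The flanking positions had fewer unconverted reads. Position 14166 had 7 of 59 reads (11.9%) in small intestine, 1 of 122 in muscle, 0 of 544 in heart and 0 of 133 in liver. Position 14170 had 12 of 113 (10.6%) in small intestine, 6 of 187 (3.21%) in muscle, 4 of 875 in heart and 0 of 98 in liver. Both were called higher in small intestine than in heart and liver, and 14166 also than in muscle; at 14170 the muscle difference of 7.41 points was under the minimum. Under Holm adjustment of Fisher's exact test, 14166 was no longer called against muscle and liver, nor 14170 against liver, with adjusted p of 1, 0.22 and 0.53, the largest among the alternatives run. These neighbouring cytosines can share reads and are not independent of each other, and whether conversion failed locally here was not tested. Of 30 nuclear sites called higher in small intestine than in muscle, 11 (36.7%) had another listed site within 10 nt, against 8.89% of the 1384 nuclear sites tested. Against liver the shares were 26.7% and 11.2%, and against heart 13.6% and 10.9%.

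The mt-Co2 site lies in the message of the cytochrome c oxidase subunit that takes electrons from cytochrome c. It had 22.8% of 1405 reads in small intestine, 7.11% of 1378 in muscle, 4.75% of 4128 in heart and 1.68% of 1308 in liver. Small intestine was far above the other 3, by 15.7 points over muscle, 18.03 over heart and 21.1 over liver (Fisher's exact adjusted p = 4.2e-70 against liver). The remaining 3 tissues lay within 5.43 points of each other. The authors called this site in small intestine alone, so it may be listed because it was high there.

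The mt-Atp6 site lies in the message of the proton channel subunit of ATP synthase. It had 34.5% of 1124 reads in small intestine, 24.2% of 3895 in heart, 18.7% of 824 in muscle and, lowest, 10.1% of 268 in liver. The intervals of the 4 tissues did not overlap. Small intestine exceeded heart by 10.3 points (7.29 to 13.5; Fisher's exact adjusted p = 6.1e-11), muscle by 15.8 and liver by 24.4. Heart exceeded liver by 14.1 points (9.72 to 17.5; Fisher's exact adjusted p = 7.3e-08), whereas heart and muscle differed by 5.50 points. With all coverages over 200 reads scaled down to 200, small intestine was no longer called higher than heart here (Fisher's exact adjusted p = 0.061; 3.7e-11 to 0.061 over the alternatives run).

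On the odds scale, the 5 sites that the authors called in more than 1 tissue (mt-Atp6, mt-Nd4, mt-Nd5, mt-Cytb 14917 and 14920) can be set side by side. The odds of an unconverted read in small intestine were 1.65 to 2.45 times those in heart, 1.44 to 2.43 times those in muscle and 2.21 to 4.71 times those in liver.

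The tRNA sites had modest levels. The RNA was polyadenylated, and whether these reads came from cut tRNAs or from longer RNAs was not tested. At mt-Tl1, the tRNA that reads a pair of leucine codons, the level was 10.0% of 269 reads in small intestine, 7.29% of 288 in liver, 4.33% of 485 in muscle and 2.28% of 2460 in heart. No pair reached the 10-point minimum. Small intestine and liver differed by 2.75 points with an interval from -1.97 to 7.60 (Fisher's exact adjusted p = 0.48), so their order was not resolved at this depth. Small intestine exceeded heart by 7.76 points (4.64 to 11.97, Fisher's exact adjusted p = 2.6e-08), and here liver was above heart as well, by 5.02 points. As the authors called mt-Tl1 in small intestine alone, it may be listed because of its level there.

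The mt-Tm site, in the tRNA that carries methionine for both initiation and elongation, was covered in heart alone. It had 17 unconverted of 91 reads there, a level of 18.7% (12.004 to 27.9). No comparison between tissues could be made at this site.

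Coverage was highest in heart at all 13 sites that another tissue covered as well. Summed over all 14 sites it was 173665 reads in heart, 44811 in muscle, 32615 in small intestine and 32010 in liver. This was 5.97% of the heart coverage over all listed sites, 1.54% in small intestine, 1.12% in liver and 0.957% in muscle. Coverage at listed cytosines is not a transcript level, since fewer cells, fewer transcripts and lost reads cannot be told apart. The tissue with most reads was thus not the one with the highest levels.

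**Figure D4:**
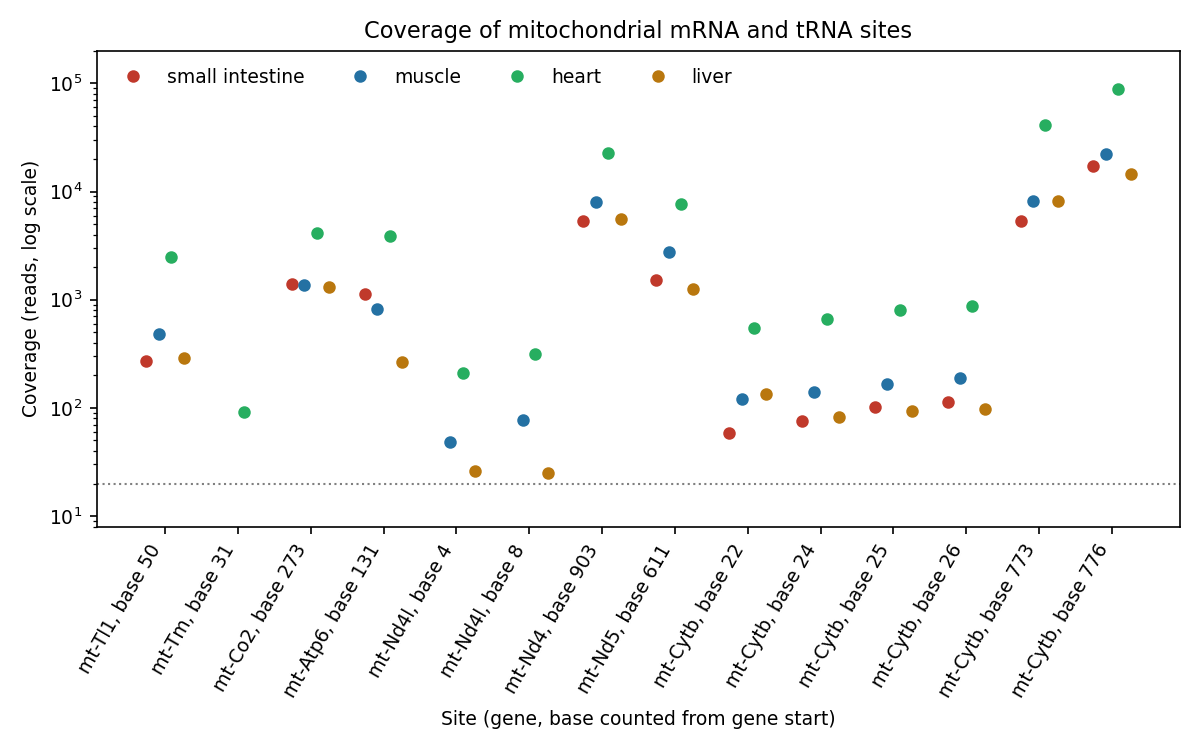
Coverage of each site in 4 tissues, in reads on a log scale. Points are the deposited coverages and the dotted line marks the minimum of 20 reads; heart has the most reads at each site, and mt-Cytb base 776 has the most reads within each tissue.

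Within mt-Cytb, coverage varied strongly over short distances. Position 14920 had 2.15 times the reads of 14917 in heart, 1.79 times in liver, 2.72 times in muscle and 3.19 times in small intestine, although they lie 3 nt apart. Position 14170 had 1.61 times the reads of 14166 in heart, 0.737 in liver, 1.53 in muscle and 1.92 in small intestine. In mt-Nd4l, 9884 had 1.51 times the reads of 9880 in heart, 0.962 in liver and 1.60 in muscle. Among nuclear sites within 10 nt of each other with at least 100 reads, the larger coverage was 1.02 to 1.03 times the smaller in the median of each tissue, and 1.12 to 1.18 times at the 90th percentile. The mt-Rnr1 pair, 2 nt apart, had ratios of 1.01 to 1.03. The filters applied to reads are not stated in the sources, and the part of these coverage steps in the levels was not tested. The sites at the start of mt-Cytb had far fewer reads than 14920, which had 101 times the coverage of 14170 in heart and 152 times in small intestine.

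Lung and spleen had no filled cell at any of the 14 sites. Of nuclear sites with at least 100 reads in each of the other 4 tissues, 664 of 704 were filled in lung and 644 in spleen, whereas 0 of 7 mitochondrial mRNA and tRNA sites were. At 1000 reads or more the counts were 122 of 125 nuclear sites in each, and 0 of 5 mitochondrial sites. The mt-Rnr1 sites of the same chromosome were filled in both, with 541 to 648 reads. A blank cell may stand for fewer than 10 reads, and no level in lung or spleen can be given.

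Nuclear genes that work with these transcripts were taken from 4 textbook lists. Nuclear subunits of oxidative phosphorylation had 22 sites in 19 genes. Small intestine was called higher than heart at 0 of 18 tested, against 2.18% of all sites, and lower at 8, against 27.5%. It was higher than muscle at 0 of 15, against 2.79%, and lower at 6, against 37.4%, a share near that of the table. Against liver it was called higher or lower at none of 13, where the shares of all sites were 3.12% and 8.09%; 9 of the 13 had an unadjusted p under 0.05 in Fisher's exact test, each lower in small intestine. Small intestine was the highest tissue at none of the 13 sites covered in all 4. Among all 1214 nuclear sites so covered it was highest at 7.83%, so none of 13 is near that share. Ndufa10, a complex I subunit at 92469865 on chromosome 1, had 40.0% in heart, 37.4% in muscle, 15.3% in liver and 10.2% in small intestine. Sdhd, a membrane anchor of complex II, had 23.1% in muscle, 20.04% in heart, 8.95% in liver and 3.10% in small intestine.

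Mitochondrial ribosomal proteins had 6 sites, of which small intestine was called lower at 3 against heart, where 27.5% of all sites were, at 3 against muscle, where 37.4% were, and at 0 against liver, where 8.09% were. It was higher at none, also at an unadjusted p under 0.05 in Fisher's exact test. Of all sites, 2.18%, 2.79% and 3.12% were called higher in small intestine than in heart, muscle and liver, so none of 6 is near those shares. Mrps10 at 47378349 had 30.1% in muscle and 9.96% in small intestine, Mrps14 21.5% and 2.31%, and Mrpl49 21.8% and 4.12%. Genes of mitochondrial RNA synthesis, processing and modification had 3 sites in 2 genes, with none higher in small intestine, again near the shares of all sites. Small intestine was called lower at 2 of them against heart, 1 against muscle and 1 against liver. The shares of all sites were 27.5%, 37.4% and 8.09%. Fastk at 24442006 had 27.5% in muscle, 18.6% in heart, 3.31% in liver and 1.48% in small intestine. Of 2 sites in mitochondrial aminoacyl-tRNA synthetases, Lars2, which charges mt-Tl1, was the exception. It had 92.0% of 19220 reads in small intestine, 82.7% of 1593 in liver, 78.5% of 1823 in muscle and 59.8% of 789 in heart. The Lars2 site was called higher in small intestine than in heart and muscle, but not than in liver. Of all sites, 2.18%, 2.79% and 3.12% were called higher there than in heart, muscle and liver. The other site of this list, in Tars2, had 0.625% in small intestine and 5.33% in heart and was not called in any pair. Why the Lars2 site had so much larger coverage in small intestine was not tested.

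The nuclear sites most like the 3 mitochondrial sites of highest mean level were sought among 704 sites with at least 100 reads in each of the 4 tissues, by the sum of absolute level differences over the 4. For mt-Cytb 14920 they were in Wac and Selenot, 44.7 and 45.8 points away. For mt-Nd5 they were in Pigo and Wac, 34.5 and 39.0 points away. For mt-Atp6 they were Tm9sf3 at 41214819 and Acbd3, 20.3 and 26.8 points away. Tm9sf3 shared the highest level in small intestine, 34.0%, but had 5.13% in muscle. Acbd3 was also highest in small intestine, with 17.3% against 16.8% in muscle, and lowest in liver, with 9.83%. Wac, Selenot and Pigo were not highest there: their levels in small intestine, 52.8%, 56.1% and 42.8%, were below those in heart.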

How the data were processed

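The submitters' processing notes name HISAT2 2.10, cutadapt, SAMtools, Trimmomatic and bcl2fastq 2.17, with mm10 as the build; how unconverted reads were filtered, sites chosen or libraries pooled is stated nowhere in the sources used. Per the file headers, the authors' deposited table gives for each tissue the coverage (a count of reads, from 10 upwards), the m5C level (a fraction, printed as percent), a p-value and a site call of unit other, the last 2 used only to describe the authors' calls. Unconverted reads were the level times the coverage, within 0.000179 of a whole number in 9926 cells. Tests used scipy 1.17.1 and statsmodels 0.14.6 on Python 3.11.15; differences have 95% Newcombe intervals. Reads had no stated molecular identifiers, so intervals and the limit for a count of 0 (3 reads) cover counting error only. The pair test was checked on simulated data. Sites were named as all members, up to 8 sites of the nuclear lists called in at least 3 of 6 pairs, and the nearest sites by level; 1 site under this rule is not reported here. The other sites of Fastk and Mrps10, and the Tars2 site, were added outside this rule. The members and lists were chosen with earlier results of these data known. Gene spans came from RefSeq, matched by position. Alternatives varied the coverage minimum, the minimum difference, the adjustment, the depth and the sites included.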

Additional observations from a re-analysis of the deposited data

How the results depend on the processing

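Of the alternatives, the scaling of reads down to 200 alone recomputes a difference, and no called site reversed under it; the others choose among the same values, so their unchanged directions say nothing about stability. The same holds for the tissue order, where any subset of the 11 sites has small intestine highest. The numbers of mitochondrial sites called moved by over 1.5 times mainly with the minimum difference. At 20 points, 3 sites were higher in small intestine than in heart, 1 than in muscle and 5 than in liver, and 0 differed between heart and liver. Of all sites, 0.546%, 0.859% and 0.891% were higher in small intestine than in heart, muscle and liver at that limit. At 5 points, 11 were higher in small intestine than in muscle. Heart and muscle differed at 3, of which 2 were higher in muscle and 1 in heart. Muscle was higher than liver at 4 and lower at 0. Heart and liver differed at 4, among them mt-Tl1, which was higher in liver. With no minimum, the same pairs had 11, 8, 6 and 6, counted in either direction. Of all sites, 4.01% were higher in small intestine than in muscle at 5 points and 5.08% with no minimum. Between muscle and heart, 312 of 1645 sites were higher in muscle and 188 lower at 5 points, and 370 and 258 with no minimum. Between muscle and liver, 558 of 1372 were higher in muscle and 86 lower at 5 points. At 10 points, 19.6% of all sites were higher in heart than in liver and 2.65% lower. Shares of all sites are not given for heart and liver at other settings, or for muscle and liver with no minimum. Those counts therefore show nothing particular to the mitochondrial sites. A coverage minimum of 100 reads left 6 higher in small intestine than in liver, of 7 tested, against 2.66% of all sites. With reads scaled down to 200, heart and liver differed at 1. On sites the authors called in a tissue outside the pair, chosen after the data were seen, 4 of 5 were higher in small intestine than in heart. Against muscle 3 of 5 were and against liver 5 of 5, and all 5 had been called in small intestine too. With 1 site per group within 10 nt, also chosen then, 4 of 7 were higher than in muscle and 6 of 7 than in liver. Of all sites kept under that choice, 2.11% and 2.63% were. The smaller counts follow from the stricter limit, the fewer sites tested or, with scaled reads, the lower depth. Under Holm adjustment the calls at mt-Cytb 14166 against muscle and liver and at mt-Cytb 14170 against liver were lost. No paired analysis was possible because each tissue has 1 set of columns, for which reason no library could be left out either. With 59 to 113 reads in small intestine at the start of mt-Cytb, intervals there are wide.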

Other observations

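The authors' calls did not follow the deposited level alone. Of 30 combinations of a mitochondrial mRNA or tRNA site and a tissue where the level reached 10% at 20 reads or more, the authors' deposited table called 24 and left 6 uncalled. Over the whole table it left 475 of 3396 uncalled (13.99%). The uncalled ones included mt-Cytb 14920 in heart, with 58.3% of 88099 reads, mt-Nd5 in liver, with 50.9% of 1264, mt-Nd4 in heart, with 17.7% of 22889, and mt-Atp6 in liver, with 10.1% of 268. The authors' deposited p-value was 1 in each of these. The other 2 were the mt-Nd4l sites in liver, with 25 and 26 reads. In small intestine all 11 mitochondrial combinations of this kind were called, while 93 of 390 over all listed sites in small intestine were not. The sources do not state what set these calls.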
